A study of Mus musculus with 6 samples.

Results

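In NMuMG cells, an epithelial line from the mouse mammary gland, 62 of the 18512 rows of the deposited count table were raised when 2APB was added to TGF-β and stood near their vehicle level with TGF-β alone. The 3 groups were DMSO, the vehicle, TGF-β at 5 ng/ml, and TGF-β at 5 ng/ml together with 2APB at 50 uM, with 2 biological replicates each and poly(A) RNA sequenced from 6 libraries. All cells had been starved of serum beforehand. The stated treatment time was 24 h in one place, while the protocol placed 2APB 24 h ahead of TGF-β, so the order and length of exposure were not settled by the sources used here. None of the samples analysed here received 2APB without TGF-β, so an effect of 2APB by itself and an effect that needs both agents cannot be told apart.

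The 62 genes were chosen by their measured levels. A row was kept when its lower CPM (counts per 1e6 of the library's total) in the 2 TGF-β+2APB libraries was at least 1 and at least 1.5 times the highest CPM of the 4 other libraries, and when the ratio of mean CPM with TGF-β to mean CPM with DMSO, after adding 0.1 to each, lay between 1/1.4 and 1.4. Of the 18512 rows, 11293 met the CPM minimum and 345 of these also met the 1.5-fold requirement. Most of those 345 rows, 279, were already above the 1.4 band with TGF-β alone, 4 were below it, and the 62 that remained are described here. The mirrored requirement, with both TGF-β+2APB libraries below all the others, was met by 206 rows. Since the rule used all 6 libraries and every contrast between them, the expression values of the members are given as a description, and calls from a fit across all rows are set beside them for reference only.

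Store-operated calcium entry is the route by which epithelial cells refill their calcium stores: STIM proteins in the endoplasmic reticulum sense that the store is empty and open ORAI channels in the plasma membrane. 2APB (2-aminoethoxydiphenyl borate) acts on these channels and on the IP3 receptors that release stored calcium. TGF-β drives mammary epithelial cells towards a mesenchymal state, through SMAD proteins and transcription factors such as SNAI1, and calcium signals act on many of the same processes through calcineurin and the NFAT factors.

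The libraries held between 71840570 and 79473182 counts. Keratins 8 and 18, which mark simple epithelia, were abundant in all 6 libraries (Krt8 at 3159 to 9272 CPM and Krt18 at 2170 to 7735 CPM), and E-cadherin (Cdh1) lay between 446 and 1221 CPM, whereas Epcam reached no more than 2.20 CPM and Cldn7 no more than 0.0782 CPM. The second TGF-β+2APB library stood apart in leukocyte genes. The summed CPM of the 7 leukocyte markers present in the table was 412 in that library and 6.39 in its replicate, against 24 to 58.95 with DMSO and 5.98 to 15.2 with TGF-β. Among those markers, Lyz2, the lysozyme of myeloid cells, stood at 369 CPM against 1.99 CPM in the replicate, and Ptprc, Itgam and Csf1r stood at 9.54, 12.9 and 12.5 CPM against 0.453, 0.151 and 2.14 CPM. The T cell marker Cd3e was at 0.0254 CPM in the same library. Genes of secretory glands differed between libraries as well, the 2 TGF-β libraries included. Smr3a and Spt1, of the salivary glands, had no count in either DMSO library or in TGF-β replicate 1, were at 7.97 and 7.69 CPM in TGF-β replicate 2, and with TGF-β+2APB stood at 20.6 and 38.0 CPM (Smr3a) and 13.6 and 12.8 CPM (Spt1). The summed level of the 8 secretory gland markers in the table was 10.2 to 12.5 CPM with DMSO, 0.654 and 21.2 CPM in TGF-β replicates 1 and 2, and 44.6 to 67.4 CPM with TGF-β+2APB. With DMSO most of this sum came from Tff3, at 11.9 and 9.21 CPM. Of these markers Scgb1b20 was called higher with TGF-β+2APB than with TGF-β. Of the endothelial markers Vwf, the von Willebrand factor, was at no more than 0.428 CPM in the other libraries and at 3.12 and 4.87 CPM with TGF-β+2APB (adjusted p = 0.048 against TGF-β, edgeR), while Pecam1, Cdh5, Kdr, Tek and Emcn did not exceed 0.330 CPM in any library. The part of leukocyte, secretory gland or endothelial genes in the members' values was not tested. Since the rule takes the lower of both TGF-β+2APB values, all 62 members also met it without the second TGF-β+2APB library.

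**Figure D1:**
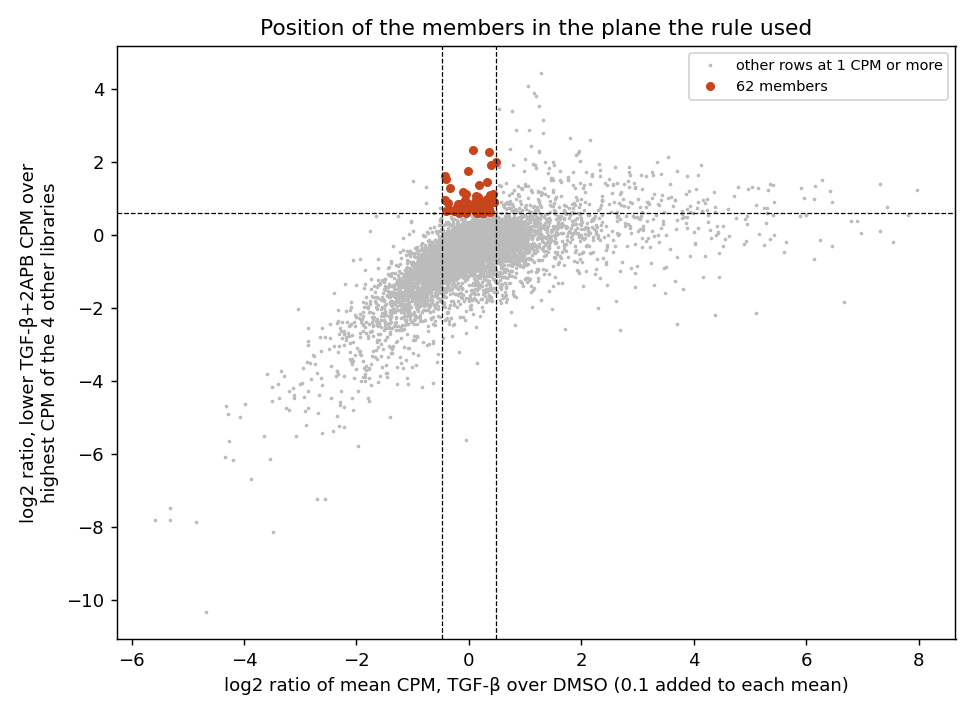
Each point is a row with a lower TGF-β+2APB level of at least 1 CPM. The horizontal axis is the log2 ratio of mean CPM, TGF-β over DMSO, and the vertical axis is the log2 ratio of the lower TGF-β+2APB CPM to the highest CPM of the other libraries. Dashed lines mark the 1.5-fold requirement and the 1.4-fold band, and the 62 members (orange) fill the box between them, while the 279 rows to its right were raised with TGF-β alone as well.

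The members ranged from just past the rule to well beyond it. The lower TGF-β+2APB value exceeded the highest other value by 1.505 to 4.98 times, with a median of 1.76 times, by 3 or more in 6 members, by 2 or more in 16 and by less than 1.6 in 17. Mean CPM with TGF-β+2APB was 1.56 to 14.9 times that with TGF-β (median 2.13) and 1.57 to 9.93 times that with DMSO (median 2.19). With TGF-β alone 38 members stood above DMSO and 24 below, at 0.668 to 1.49 times the DMSO mean (median 1.09). Just inside the 1.5-fold requirement were Fam210b at 1.5047, Sptb at 1.509 and Gdpd1 at 1.5108 times, and just outside it Vegfa at 1.4995, Atp2b4 at 1.4984 and Nhsl2 at 1.4971 times. Nearest inside the band were Vwa1, with a TGF-β to DMSO ratio of 1.3995, Hsdl2 at 1.3623 and Cyth4 at 1.3571, and nearest outside it Srgap1 at 1.4039, Cacna2d4 at 0.698 and Prkg1 at 1.44. Prkg1, a cGMP-dependent protein kinase, exceeded the other libraries by 10.9 times, further than any member.

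In a fit across all 13353 tested rows (edgeR quasi-likelihood test, adjusted p of 0.05 or less), 59 of the 62 members were called higher with TGF-β+2APB than with TGF-β, where 6.58% of all rows were, and 0 were called lower, where 10.9% were (0 also at an unadjusted p under 0.05 and with DESeq2). Against DMSO 61 were called higher, where 25.6% of all rows were. Sh2b2, Rnf144a and Syt17 were not called against TGF-β, and Rnf144a was not called against DMSO either. With TGF-β alone against DMSO, 4 members were called higher, D030028A08Rik, Sema4d, Hsdl2 and Rhou, where 21.8% of all rows were, and 2 were called lower, Map3k9 and Sh2d3c, where 19.7% were. The rule used each of these contrasts, so nothing is read from the counts.

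**Figure D2:**
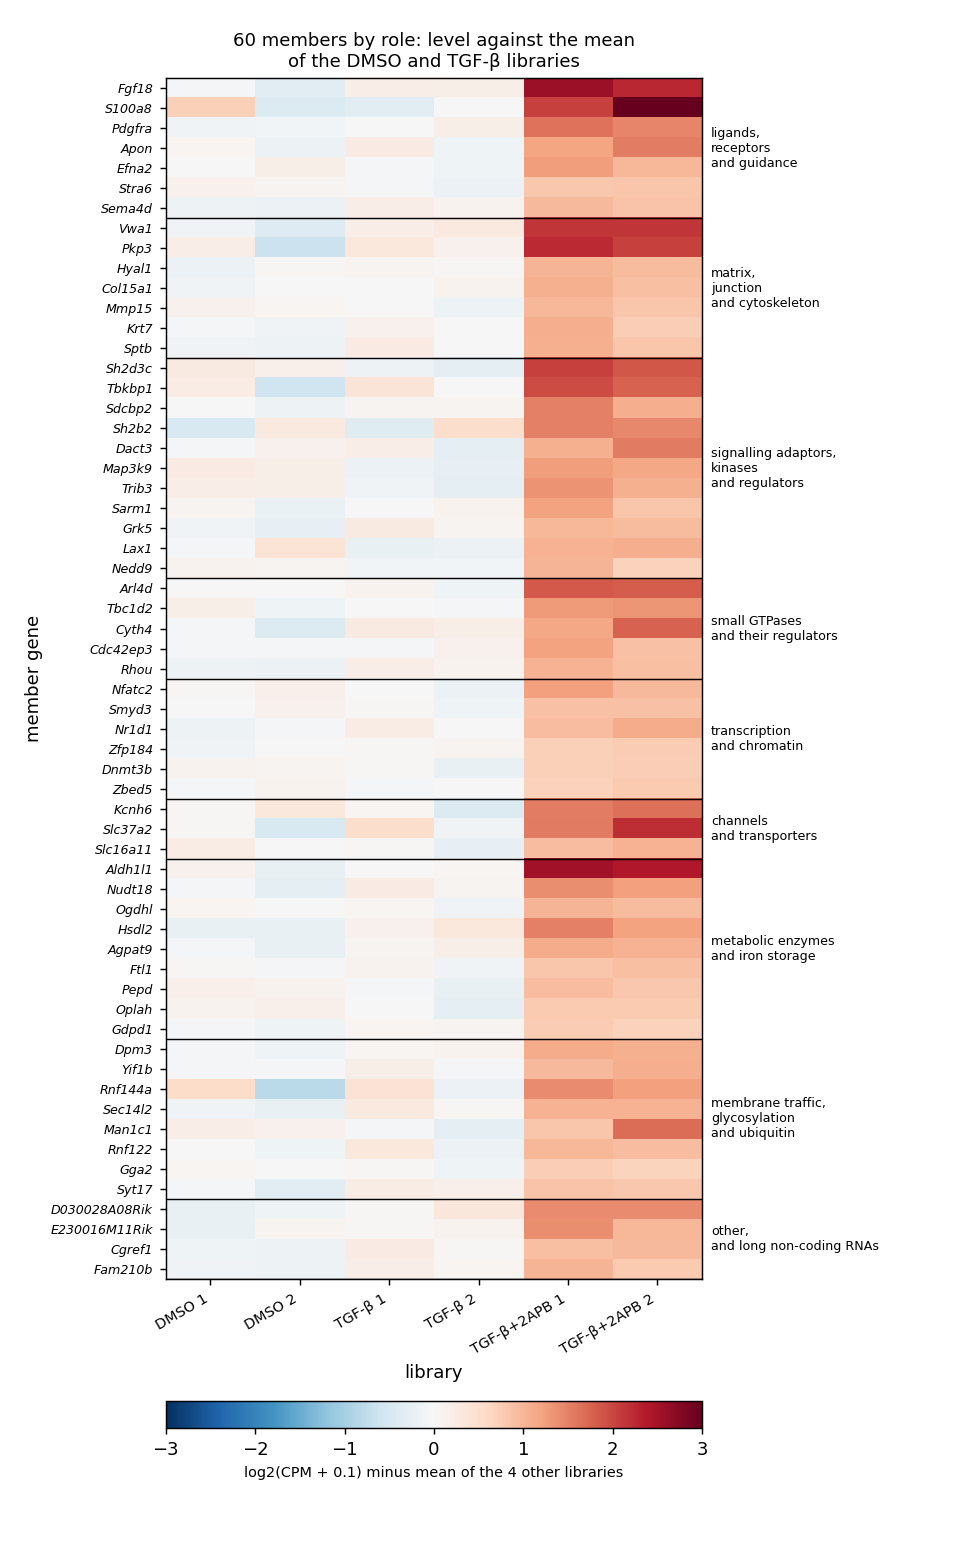
Each row is 1 of 60 members, grouped by role, and each column 1 library. Colour gives log2(CPM + 0.1) minus the mean of the DMSO and TGF-β libraries, from blue (lower) through white to red (higher), so that the white left part shows the levels held within the band and the red right part the 2 TGF-β+2APB libraries, where S100a8, Man1c1, Slc37a2 and Cyth4 are visibly darker in the second.

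The members were sorted by known role after their values had been seen. Promoter sequences of 4 of them are shown, read from RefSeq on GRCm38.p6, each 250 bases that end just before the annotated transcript start and written 5′ to 3′ on the gene's strand. Aldh1l1 is shown as the member farthest past the rule, and the other 3 each carry a short motif of a calcium- or stress-linked transcription factor that was searched in every promoter. Capitals mark the GC box of Aldh1l1 (chr6:90550543-90550792, plus strand), the cyclic AMP response element of Arl4d (chr11:101665291-101665540, plus strand), the AP-1 site of Slc37a2 (chr9:37255739-37255988, minus strand) and the NFAT core sites of Nr1d1 (chr11:98775378-98775627, minus strand), 1 of which lies on the opposite strand.
Aldh1l1: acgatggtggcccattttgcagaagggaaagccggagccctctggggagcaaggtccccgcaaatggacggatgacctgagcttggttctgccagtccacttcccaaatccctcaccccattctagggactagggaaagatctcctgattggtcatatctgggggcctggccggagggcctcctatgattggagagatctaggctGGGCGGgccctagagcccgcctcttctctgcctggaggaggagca
Arl4d: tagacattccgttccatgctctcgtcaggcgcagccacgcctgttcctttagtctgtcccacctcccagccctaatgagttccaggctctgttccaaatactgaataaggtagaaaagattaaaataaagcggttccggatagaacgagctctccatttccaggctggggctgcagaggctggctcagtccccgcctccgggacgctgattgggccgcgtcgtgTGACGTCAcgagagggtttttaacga
Slc37a2: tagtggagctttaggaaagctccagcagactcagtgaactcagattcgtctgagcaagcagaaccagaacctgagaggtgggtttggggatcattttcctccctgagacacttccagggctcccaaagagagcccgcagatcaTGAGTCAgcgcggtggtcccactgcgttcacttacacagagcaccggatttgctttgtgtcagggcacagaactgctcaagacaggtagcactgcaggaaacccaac
Nr1d1: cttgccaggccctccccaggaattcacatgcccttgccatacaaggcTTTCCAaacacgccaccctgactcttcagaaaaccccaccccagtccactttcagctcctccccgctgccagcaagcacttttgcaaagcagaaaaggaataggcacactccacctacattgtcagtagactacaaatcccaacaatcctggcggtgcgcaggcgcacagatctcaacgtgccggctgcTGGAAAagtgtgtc

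Motifs were searched on both strands in windows of 250 bases before to 50 after each start. Windows were found for 53 of the 62 members and for 27025 genes in all, and for 6042 of the genes that met the CPM minimum and the band, which are the nearer comparison. The GC box (GGGCGG) was held by 67.9% of the members, by 38.2% of all genes and by 71.4% of the comparison genes. The NFAT core (TGGAAA) was held by 24.5% of the members, Nfatc2, Nr1d1 and Arl4d among them, by 23.9% of all genes and by 18.4% of the comparison genes. The AP-1 motif (TGANTCA) was in 6 members, Cgref1, E230016M11Rik, Sdcbp2, Sema4d, Slc37a2 and Tbkbp1, or 11.3%, against 8.97% of all genes and 5.08% of the comparison genes. The cyclic AMP response element (TGACGTCA) was in Arl4d alone, 26 bases before its start, and in 2.03% of all genes and 4.25% of the comparison genes. Trib3 alone held the ATF4 and CEBP composite element (TGATGNAA), 15 bases after its start, as did 4.51% of all genes and 2.37% of the comparison genes. Of the 15 motifs, 5 were found in no member's window. The matches describe these letters and do not show binding.

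Among ligands, receptors and guidance molecules, Fgf18, a secreted fibroblast growth factor (chr11:33117430-33147400, GRCm38), was farthest from the other libraries. Its level was 0.391 and 0.306 CPM with DMSO, 0.478 and 0.469 CPM with TGF-β, and 2.89 and 2.31 CPM with TGF-β+2APB. The groups did not overlap, as the rule requires, and the TGF-β+2APB mean was 5.497 times that with TGF-β, a log2 difference of 2.49 ± 0.29 (SE, 2 replicates per group). In a bulk sample, more cells that use a gene and more RNA per cell cannot be told apart.

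Pdgfra, the platelet-derived growth factor receptor alpha (chr5:75152292-75198215), was at 1.02 and 1.03 CPM with DMSO, 1.11 and 1.24 CPM with TGF-β, and 3.60 and 3.20 CPM with TGF-β+2APB, so the rise was between 2 low levels. It is also a fibroblast marker, and the related receptor Pdgfrb followed another course: it stood at 0.1303 and 0.167 CPM with DMSO, 8.03 and 6.95 CPM with TGF-β, and 8.43 and 7.13 CPM with TGF-β+2APB. Of the other fibroblast markers in the table, Col1a1 lay between 20.99 and 27.4 CPM in the 4 libraries with TGF-β, while Col1a2, Col3a1, Dcn and Thy1 did not exceed 0.167 CPM in any library. The summed level of the fibroblast list was 30.3 to 31.3 CPM with TGF-β and 31.8 to 39.5 CPM with TGF-β+2APB. The part of any fibroblast-like cells in the Pdgfra value was not tested.

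Efna2 encodes ephrin A2, a membrane-anchored guidance ligand, and stood 2.36 times higher with TGF-β+2APB than with TGF-β. Sema4d, a semaphorin that signals through plexin B1, was at 27.3 and 26.8 CPM with DMSO, 34.6 and 32.6 CPM with TGF-β, and 59.0 and 54.7 CPM with TGF-β+2APB. It rose in both steps, the smaller of them with TGF-β alone. Stra6, the receptor for the retinol-binding protein, was at 34.6 and 34.7 CPM with TGF-β+2APB, against 17.4 to 21.3 CPM in the other libraries. Apon, an apolipoprotein gene, stayed at or below 1.70 CPM throughout.

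S100a8, a calcium-binding protein best known from neutrophils (chr3:90668978-90670035), was at 0.417 and 0.139 CPM with DMSO, 0.151 and 0.221 CPM with TGF-β, and 1.21 and 4.32 CPM with TGF-β+2APB. Its fold over TGF-β, 14.9, was the largest of the 62 members, and its 2 TGF-β+2APB values differed by 3.57 times, the widest gap of the 62. The higher value came from the library in which the leukocyte genes were high. Against the replicate alone, S100a8 exceeded the highest other library by 2.90 times. Man1c1, a Golgi mannosidase, Slc37a2, a sugar phosphate transporter of the endoplasmic reticulum, and Cyth4, a cytohesin that activates ARF GTPases in blood cells, were also higher in the second library, by 1.84, 1.62 and 1.53 times. In the first library, where the summed leukocyte level was 6.39 CPM, they exceeded the highest other value by 1.59, 2.18 and 1.85 times. For S100a8 and for each of these members the first library was the lower one. The rule therefore fixed these ratios at 1.5 or more in advance, and nothing is read from them. The part of the leukocyte genes in the values of the second library was not tested. Across all members the first library was the higher of the 2 in 43 and the second in 19 (median ratio of the higher to the lower 1.102).

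**Figure D3:**
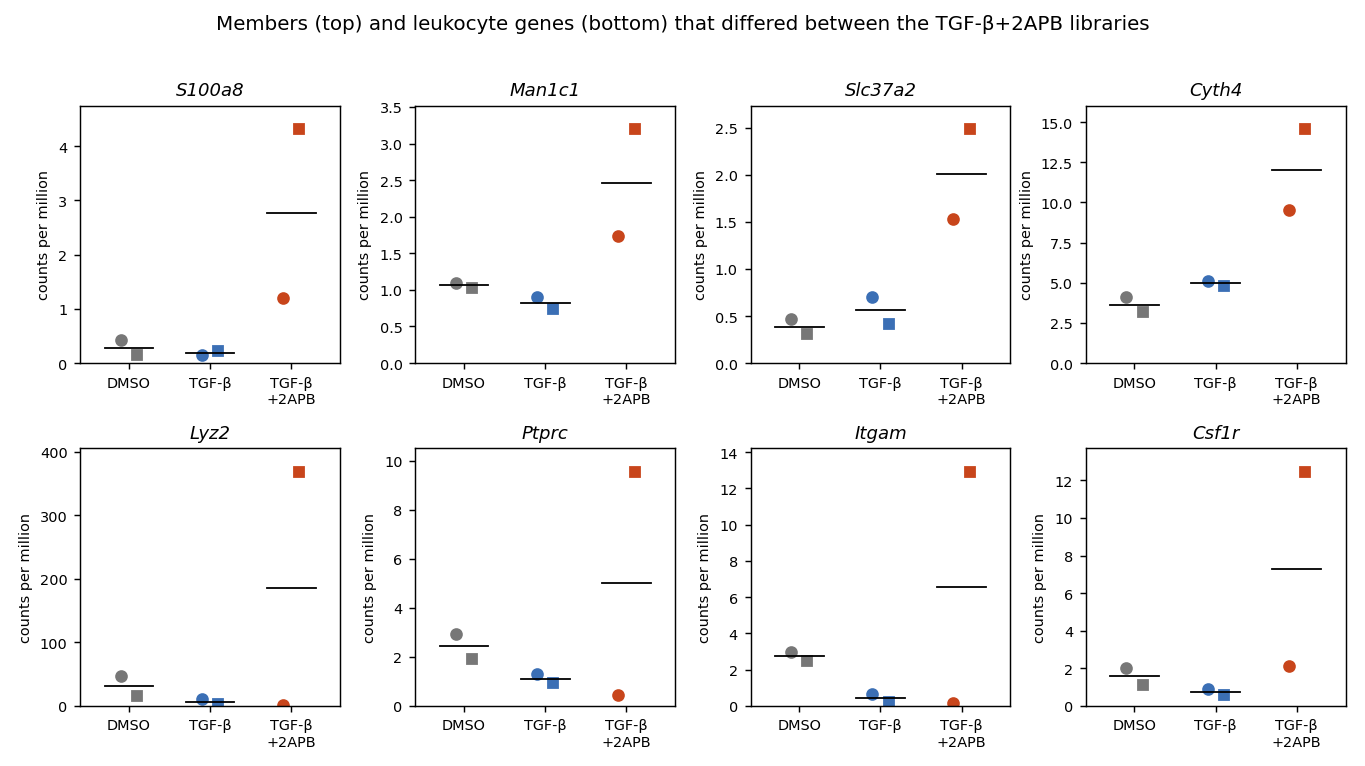
Level in CPM (vertical axes, from 0) of 4 members (top) and 4 leukocyte genes (bottom) in the 3 groups, with circles for replicate 1, squares for replicate 2 and lines for group means. In TGF-β+2APB replicate 2 Lyz2 reached 369 CPM and S100a8 reached 4.32 CPM, while in replicate 1 Lyz2 was at 1.99 CPM and S100a8 at 1.21 CPM.

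The extracellular matrix and junction genes held 8 members. Vwa1, a matrix protein with a von Willebrand A domain, was at 0.495 and 0.390 CPM with DMSO, 0.629 and 0.689 CPM with TGF-β and 2.72 CPM in each TGF-β+2APB library. It lay nearest to the edge of the band, and was lost under 2 other scalings of the CPM.

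Pkp3, plakophilin 3 of the desmosomal plaque (chr7:141078218-141090510), was at 0.521 and 0.251 CPM with DMSO, 0.579 and 0.496 CPM with TGF-β, and 2.49 and 2.16 CPM with TGF-β+2APB. This was 4.33 times the TGF-β mean, from a low level. Col15a1, a collagen of basement membranes, Mmp15, a membrane-bound matrix metalloproteinase, and Hyal1, a hyaluronidase, stood at 1.92, 2.01 and 1.93 times their TGF-β means. Hyal1 overlaps Nat6 and Hyal3 on the same strand, so reads could be shared between them. Krt7, a keratin of simple and glandular epithelia, was at 45.3 and 43.2 CPM with DMSO, 51.3 and 47.3 CPM with TGF-β, and 98.9 and 78.0 CPM with TGF-β+2APB. Krt7 was the only member among the 32 keratin rows of the table. The keratins Krt8 and Krt18 were raised with TGF-β already and rose further with 2APB, by 0.90 ± 0.09 and 0.89 ± 0.10 on the log2 scale (adjusted p = 0.00501 and 0.00588). Sptb, a beta spectrin of the membrane skeleton, was at 17.1 and 14.4 CPM against 7.29 to 9.54 CPM elsewhere. It lies opposite Plekhg3, whose level was 107 CPM in each DMSO library and 257 and 234 CPM with TGF-β+2APB, and without a stated strand setting the reads of the pair cannot be told apart.

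**Figure D4:**
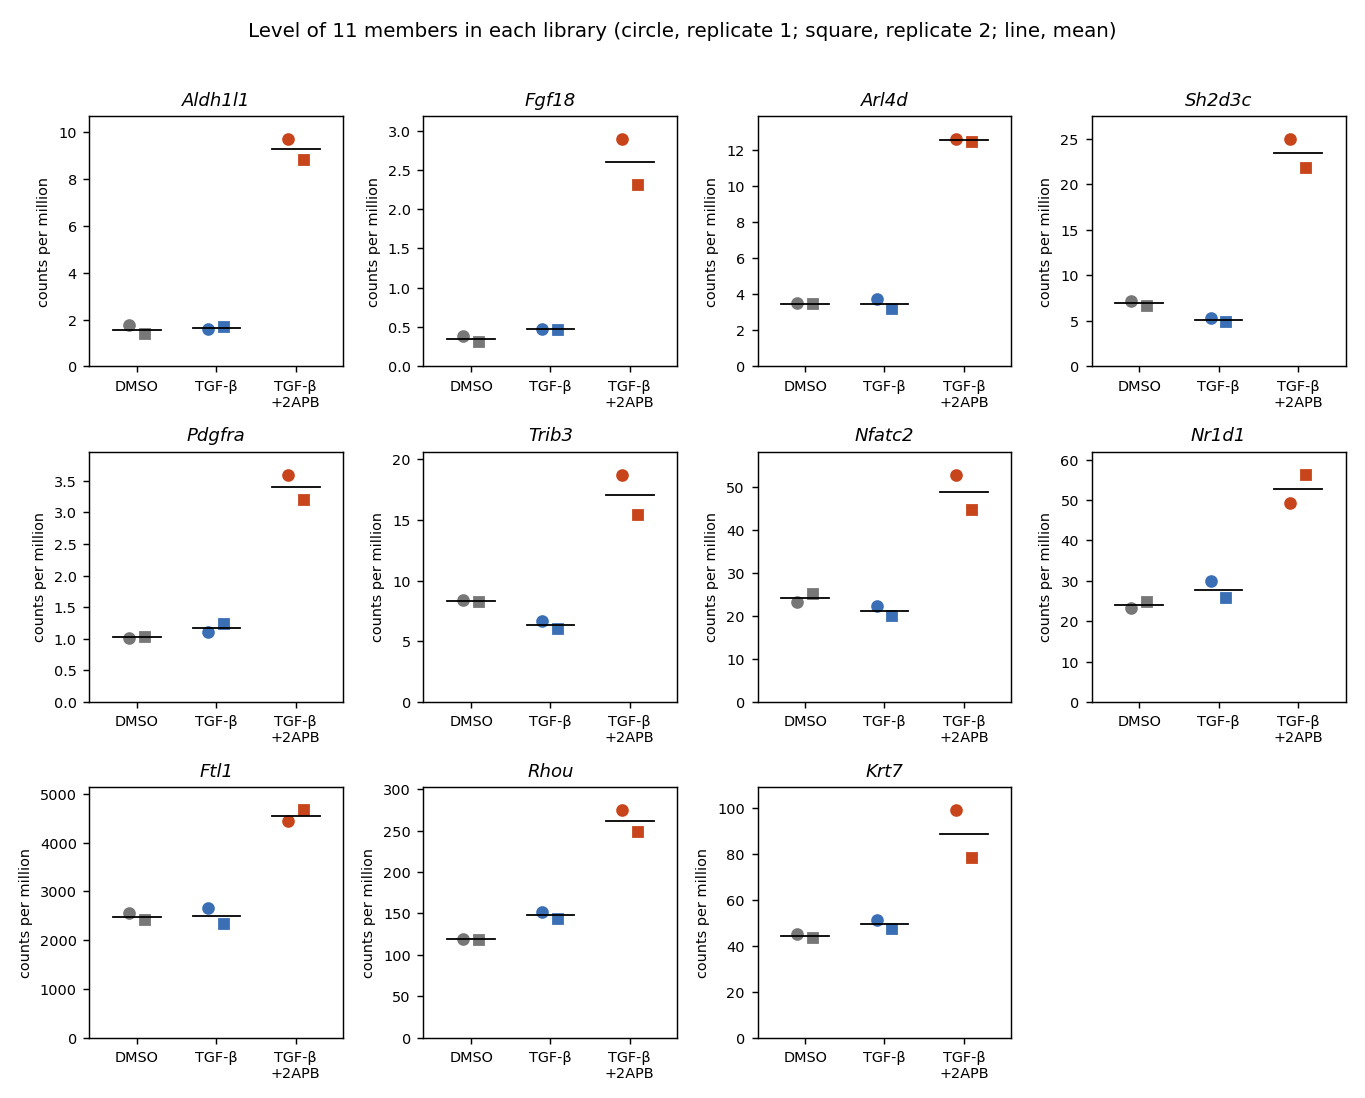
Level in CPM (vertical axes, from 0) of 11 members in the 3 groups, with circles for replicate 1, squares for replicate 2 and lines for group means. In each panel both TGF-β+2APB points lie above all 4 others, as the rule requires, from 2.31 to 2.89 CPM for Fgf18 up to 4437 to 4662 CPM for Ftl1.

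Signalling genes formed the largest group, with 11 members, and 5 more belonged to the small GTPases. Sh2d3c, an SH2-domain adaptor that binds proteins of the Cas family (chr2:32721055-32755512), was at 7.17 and 6.65 CPM with DMSO, 5.28 and 4.91 CPM with TGF-β, and 24.97 and 21.8 CPM with TGF-β+2APB. It dipped with TGF-β alone and then stood at 4.59 times the TGF-β mean, a log2 difference of 2.23 ± 0.12. Nedd9, itself a Cas family scaffold of focal adhesions, was far more abundant and moved less, at 73.7 and 72.6 CPM with DMSO, 65.3 and 64.7 CPM with TGF-β, and 139 and 112 CPM with TGF-β+2APB. Map3k9, a mixed-lineage kinase upstream of JNK, took the same course as Sh2d3c, with 7.92 and 7.63, then 5.86 and 5.65, then 16.2 and 15.2 CPM in the 3 groups.

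Tbkbp1, which binds the kinase TBK1, was at 0.835 to 1.74 CPM in the other libraries and at 5.36 and 4.70 CPM with TGF-β+2APB. Sdcbp2 (syntenin 2), a PDZ scaffold, stood at 2.40 times its TGF-β mean, Sh2b2, an adaptor of the insulin receptor, at 2.69 times and Dact3, which restrains Wnt signalling through Dishevelled, at 2.82 times, the last 2 at no more than 2.21 CPM. Sarm1, an NAD-cleaving enzyme of neurons, Grk5, a kinase of G protein-coupled receptors, and Lax1, an adaptor of lymphocytes, stood at 2.02, 1.75 and 2.46 times theirs. Lax1 was at 5.71 CPM in the first and 5.89 CPM in the second TGF-β+2APB library, so these 2 values lay close together.

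Arl4d, a small GTPase that brings cytohesins to the plasma membrane (chr11:101665541-101667832), was at 3.52 and 3.45 CPM with DMSO, 3.72 and 3.17 CPM with TGF-β, and 12.6 and 12.4 CPM with TGF-β+2APB. Its 2 TGF-β+2APB values lay close together, and the log2 difference from TGF-β was 1.89 ± 0.14. Rhou, an atypical small GTPase of focal adhesions (chr8:123653929-123663884), was the second most abundant member by CPM, at 120 and 118 CPM with DMSO, 152 and 143 CPM with TGF-β, and 274 and 248 CPM with TGF-β+2APB. Cdc42ep3, an effector of CDC42, and Tbc1d2, which acts on RAB7, stood at 2.01 and 2.52 times their TGF-β means.

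Trib3, a pseudokinase that binds AKT and is induced by ATF4 (chr2:152337422-152344032), was at 8.42 and 8.21 CPM with DMSO, 6.72 and 6.04 CPM with TGF-β, and 18.8 and 15.4 CPM with TGF-β+2APB. It was the only member on a list of ATF4 and CHOP targets, of which 19 were tested. Of the 18 others, 4 (22.2%) were called higher with TGF-β+2APB than with TGF-β and 1 (5.56%) lower, where 6.58% and 10.9% of all rows were. Their median log2 difference was 0.11, where all tested rows had a median of -0.00367. Nupr1, Ddit4, Aldh18a1 and Asns, which act in stress signalling and amino acid synthesis, were those called higher, by 0.57 ± 0.09, 0.53 ± 0.08, 0.49 ± 0.11 and 0.37 ± 0.09 (adjusted p = 0.0149, 0.0109, 0.038 and 0.0392). Psat1, of serine synthesis, was called lower, by -1.14 ± 0.12 (adjusted p = 0.00516). CHOP itself (Ddit3) was at 21.8 CPM in each DMSO library, 12.4 and 9.84 CPM with TGF-β, and 6.95 and 8.76 CPM with TGF-β+2APB, and did not pass the test against TGF-β. Of 18 tested ER chaperone and unfolded protein genes, 0 were called higher with edgeR (1 at an unadjusted p under 0.05 and 1 with DESeq2). With edgeR 2 (11.1%) were called lower. Of all tested rows 6.58% were called higher and 10.9% lower in this comparison, so the 0 of 18 is not read as a result.

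Of the nuclear genes, 6 were members. Nfatc2, the calcineurin-regulated factor also known as NFAT1 (chr2:168476410-168601657), was at 23.2 and 25.1 CPM with DMSO, 22.2 and 20.015 CPM with TGF-β, and 52.8 and 44.5 CPM with TGF-β+2APB, 2.30 times the TGF-β mean. The calcineurin inhibitor Rcan1, which NFAT induces, was at 26.4 to 27.6 CPM with DMSO, 18.8 to 23.9 CPM with TGF-β and 19.1 to 20.6 CPM with TGF-β+2APB, and did not pass the test between the last 2 groups. None of the 17 genes of store-operated entry and calcium release in the table was a member. Of the 16 tested, 2 were called higher with TGF-β+2APB than with TGF-β, the calcium pump gene Atp2b4 and the IP3 receptor gene Itpr1, by 0.78 ± 0.11 and 0.73 ± 0.09 (adjusted p = 0.0112 and 0.00687). The 4 called lower were Stim1, Stim2, Itpr2 and Atp2b1, of which Stim1 fell by 0.42 ± 0.10 (adjusted p = 0.0374). These were 12.5% called higher and 25% lower, where 6.58% and 10.9% of all rows were. Orai1 and Orai3 did not pass the test, Orai3 at -0.07 ± 0.12. Against DMSO Orai3 was called lower, by -0.71 ± 0.12 with TGF-β+2APB and -0.64 ± 0.12 with TGF-β.

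Nr1d1, which encodes the clock repressor REV-ERB alpha (chr11:98767932-98775333), was at 23.4 and 24.7 CPM with DMSO, 29.998 and 25.7 CPM with TGF-β, and 49.3 and 56.3 CPM with TGF-β+2APB. It overlaps Thra on the opposite strand, whose level was 55.5 and 57.3 CPM with DMSO, 31.7 and 26.7 CPM with TGF-β, and 21.4 and 24.2 CPM with TGF-β+2APB, so the neighbour moved the other way. Of 15 tested clock genes, Nr1d1 was the only member. Of the 14 others 1 (7.14%) was called higher than with TGF-β and 2 (14.3%) lower, where 6.58% and 10.9% of all rows were. Bhlhe40, a clock repressor, was called higher with 2APB added, by 1.04 ± 0.11 (adjusted p = 0.00557), after a rise with TGF-β. Per2 and Per3 were called lower, by -0.87 ± 0.13 and -1.06 ± 0.13 (adjusted p = 0.0122 and 0.00774), and Nr1d2, the paralogue of Nr1d1, was at 47.6 to 62.4 CPM with TGF-β and 63.7 to 68.1 CPM with 2APB added, and did not pass. The other nuclear members, Smyd3, a SET-domain methyltransferase, Zfp184 and Zbed5, named for zinc fingers, and Dnmt3b, a DNA methyltransferase that sets new marks, stood at 1.61 to 1.91 times their TGF-β means.

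Metabolic enzymes and iron storage made up 9 members. Aldh1l1, the enzyme that oxidises 10-formyl-tetrahydrofolate and so governs the folate pool of 1-carbon metabolism (chr6:90486427-90600203), was at 1.77 and 1.36 CPM with DMSO, 1.61 and 1.68 CPM with TGF-β, and 9.72 and 8.83 CPM with TGF-β+2APB. No other member was as far from the remaining libraries: the lower TGF-β+2APB value was 4.98 times the highest other value, and the log2 difference from TGF-β was 2.53 ± 0.19. The RefSeq start whose promoter is printed above lies within the gene as GENCODE outlines it.

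Ftl1, the light chain of the iron store ferritin (chr7:45457944-45459884), was the most abundant member, at 2552 and 2408 CPM with DMSO, 2664 and 2326 CPM with TGF-β, and 4437 and 4662 CPM with TGF-β+2APB. Its per-length level, TPM, computed from counts and exon lengths, rose from 6943 with DMSO to 12660 with TGF-β+2APB. The heavy chain, Fth1, did not rise with it, at 1732 and 1661 CPM with DMSO, 861 and 674 CPM with TGF-β, and 590 and 772 CPM with TGF-β+2APB, and its difference between the last 2 groups did not pass the test. Ferritin genes have many near-identical copies in the mouse genome, and how reads with several alignments were handled is not given in the sources used here, so both values are uncertain.

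Ftl1 was the only member among 21 tested NRF2 targets, the antioxidant genes. Of the 20 others, 3 (15%) were called higher with 2APB added and 4 (20%) lower, where 6.58% and 10.9% of all rows were. The median log2 difference of the 20 was -0.30. Those higher were Hmox1, Gclm and Srxn1, for haem breakdown, glutathione synthesis and peroxiredoxin repair, by 0.83 ± 0.12, 0.81 ± 0.08 and 0.71 ± 0.10 (adjusted p = 0.0115, 0.00471 and 0.0116). Those lower were Gclc, Gsta3, G6pdx and Tkt, and Gclc, which encodes the partner subunit of Gclm, fell by 1.56 ± 0.21 (adjusted p = 0.00874).

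**Figure D5:**
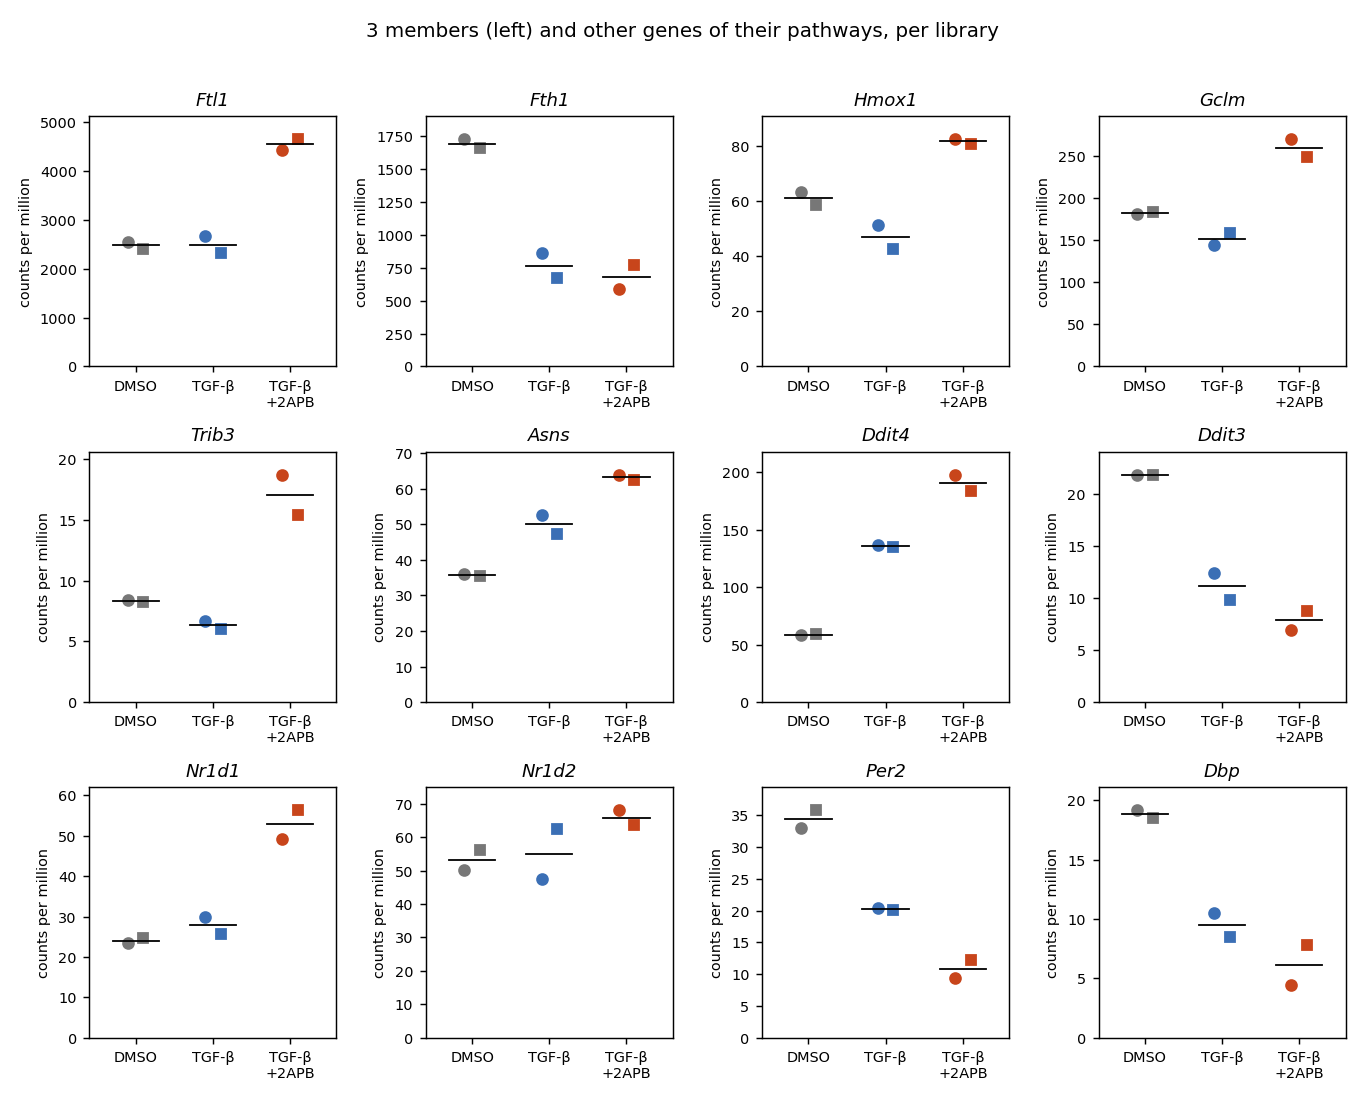
Level in CPM (vertical axes, from 0) of 3 members, Ftl1, Trib3 and Nr1d1 (left column), beside other genes of the same lists, in the 3 groups, with circles for replicate 1, squares for replicate 2 and lines for group means. Ftl1 stood at 4437 and 4662 CPM with TGF-β+2APB where Fth1 was at 590 and 772 CPM, and Ddit3 and Per2 were lower than with DMSO where Trib3 and Nr1d1 were higher.

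Nudt18, which hydrolyses oxidised nucleotides, was at 44.0 and 39.0 CPM with TGF-β+2APB against 13.8 to 19.7 CPM elsewhere, and Ogdhl, a relative of the 2-oxoglutarate dehydrogenase of mitochondria, at 41.2 and 39.6 against 18.8 to 21.2 CPM. Hsdl2, a peroxisomal dehydrogenase, was at 11.2 and 11.1 CPM with DMSO, 14.1 and 16.3 CPM with TGF-β, and 37.3 and 30.1 CPM with TGF-β+2APB. Pepd, the dipeptidase that frees proline, was at 93.1 and 89.8 CPM with DMSO, 81.1 and 71.7 CPM with TGF-β, and 159 and 145 CPM with TGF-β+2APB. Lipid enzymes were Agpat9, listed as Gpat3 in current annotation, of glycerolipid synthesis, and Gdpd1, a phosphodiesterase, at 1.94 and 1.56 times their TGF-β means. Oplah, of the glutathione cycle, was at 2.84 and 2.82 CPM, and shares its locus with Exosc4 and Smpd5 on the opposite strand.

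Kcnh6, a voltage-gated potassium channel, was at 3.12 and 3.38 CPM with TGF-β+2APB against 0.744 to 1.28 CPM elsewhere. Of 211 rows named as ion channels, 2 were members. Slc16a11, of the monocarboxylate transporter family, and Slc37a2 were the members among 335 solute carrier rows. Membrane traffic and protein modification held Gga2, a clathrin adaptor of the Golgi, at 129 and 123 CPM with TGF-β+2APB against 71.1 to 80.6 CPM elsewhere, and Dpm3, a subunit of the dolichol-phosphate mannose synthase, at 27.4 and 26.4 against 11.5 to 13.5 CPM. Yif1b, of early secretory membranes, was at 29.8 and 32.1 CPM, and Sec14l2, a lipid-binding protein, at 6.70 and 6.60 CPM. The ubiquitin ligase genes Rnf122 and Rnf144a and the synaptotagmin Syt17 stood at 1.87, 2.49 and 1.59 times their TGF-β means, and Rnf144a did not exceed 1.28 CPM.

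The remaining members were Fam210b, a mitochondrial protein, at 164 and 140 CPM with TGF-β+2APB against 72.4 to 93.1 CPM elsewhere, Cgref1, with EF-hand domains, at 27.007 and 28.3 against 13.001 to 17.012 CPM, and 2 rows annotated as processed transcripts. E230016M11Rik, at 2.92 and 2.18 CPM, lies opposite Gadd45a, a DNA damage gene that climbed from 26.2 and 25 CPM with DMSO through 65.9 and 75.6 CPM with TGF-β to 259 and 214 CPM. Reads of the pair cannot be told apart without the strand setting. D030028A08Rik, at 21.2 and 21.043 CPM, overlaps Cdk5rap3, Sp2 and Prr15l, and of these Cdk5rap3 stood at 55.6 and 58.4 CPM with TGF-β+2APB and 68.9 to 80.5 CPM elsewhere.

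The genes that the study singles out for 2APB were not members. With TGF-β+2APB the cytokine gene Osm was at 1.06 and 1.57 CPM, the RNA-binding Msi1 at 1.01 and 0.863 CPM, the kinase gene 2610018G03Rik at 1.79 and 0.863 CPM and Reln, reelin, at 0.831 and 1.29 CPM, each at no more than 0.276 CPM in the 4 other libraries, so low levels or a rise with TGF-β alone kept them outside. Klf4 was at 15.2 and 14.6 CPM with DMSO, 5.16 and 7.20 CPM with TGF-β, and 21.8 and 21.6 CPM with 2APB added, a return past its starting level rather than a rise from a flat one. Abcg1 was at 0.403 CPM in the first TGF-β+2APB library and 3.93 CPM in the second, the library with the leukocyte genes, against 0.195 to 0.443 CPM elsewhere, and did not pass the test. Cyp1b1 was called higher and Igfbp4 lower than with TGF-β, by 0.59 ± 0.14 and -1.44 ± 0.17 (adjusted p = 0.044 and 0.00704), while Ercc1 and Snai1 did not pass. Snai1 was low, at 0.0782 and 0.167 CPM with DMSO, 0.327 and 0.551 CPM with TGF-β, and 0.554 and 0.787 CPM with TGF-β+2APB. Its log2 difference between the last 2 groups was 0.65 ± 0.47. In the study, PCR showed the Snai1 increase to be largest soon after TGF-β was added and to fade later. These libraries may not cover that early time, so the early increase was not tested here. Against DMSO Cyp1b1, Igfbp4, Ercc1 and Snai1 were all called higher with TGF-β+2APB, by 2.65 ± 0.16, 1.21 ± 0.17, 1.93 ± 0.10 and 2.51 ± 0.52. So were 9 of the 10 genes the study names, where 25.6% of all rows were. The same 4 genes were already called higher than with DMSO under TGF-β alone, by 2.06 ± 0.15, 2.66 ± 0.18, 1.70 ± 0.10 and 1.86 ± 0.52 in that order. Under TGF-β alone 5 of the 10 were called higher and 1 lower, where 21.8% and 19.7% of all rows were.

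Pathway membership was otherwise sparse. Of 20 pathway lists 17 held no member. Over all 20 lists 304 tested genes were not members. Of these 40 (13.2%) were called higher and 53 (17.4%) lower with TGF-β+2APB than with TGF-β, where 6.58% and 10.9% of all rows were. The 304 include the 10 genes that the study names for 2APB, of which 6 were called higher and 1 lower. The study picked those at least partly from these same data, so nothing is read from the shares. Of 22 NF-kB targets 2 (9.09%) were called higher and 5 (22.7%) lower, and of 24 genes of the PI3K and AKT pathway 3 (12.5%) were called higher (Pik3cb, Foxo1 and Irs2) and 2 (8.33%) lower (Inpp4b and Tsc2). Of 24 lysosomal genes controlled by TFEB, Ctsl, Npc1 and Sqstm1 were called higher, by 0.78 ± 0.08, 0.46 ± 0.08 and 0.49 ± 0.11 (adjusted p = 0.00501, 0.0202 and 0.0333). Among immediate early genes, which growth factor and calcium signals switch on, 5 of 19 were called higher, Fosb by 2.10 ± 0.21, Klf4 by 1.85 ± 0.16, Egr3 by 1.249 ± 0.29 and Fosl2 by 0.68 ± 0.10 (adjusted p = 0.00482, 0.00375, 0.0371 and 0.0108) and also Jun. None was called lower with edgeR, while 4 were lower at an unadjusted p under 0.05 and 3 were called lower with DESeq2. Among sterol synthesis and uptake genes 0 of 18 were called higher with edgeR (1 at an unadjusted p under 0.05 and 1 with DESeq2) and 11 were called lower, at a median of -0.53, Sqle, of squalene oxidation, by -0.80 ± 0.09 (adjusted p = 0.00581). Of 5 tested EMT transcription factors, 0 were called between TGF-β+2APB and TGF-β with edgeR or with DESeq2 (1 was lower at an unadjusted p under 0.05), while all 5 were called higher than with DMSO. Of 12 tested genes of the TGF-β response, 11 were called higher with TGF-β than with DMSO and with 2APB added 5 were called higher than with TGF-β alone and 1, the fibronectin gene Fn1, lower, by -0.33 ± 0.07 (adjusted p = 0.0306).

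In properties the rule did not name, the members had transcripts of higher GC content, with a median of 54.4% against 49.2% in the 7520 annotated rows that met the CPM minimum and the band. CPM varied with GC content between libraries, as given below, so this difference may not be independent of the rule. The members' median per-length level in DMSO, whose libraries the rule did use, was 4.61 against 34.2 TPM. Of the 62, 21 had a lower TGF-β+2APB CPM under 5 and 6 over 100. Promoter windows of the members had a median GC content of 59.0%, against 61.3% for the comparison genes. The TGF-β libraries deviated from the mean of all libraries by -0.27 (replicate 1) and 0.16 (replicate 2) on the log2 scale at low GC content, so the rule was also applied after a GC correction. The corrected values gave 87 rows: 59 of the 62 members were retained, Gdpd1, Hsdl2 and Vwa1 were lost, and 28 other rows joined. Exon length had a median of 4086 bases against 4596. The members were spread over 17 chromosomes, with 10 on chromosome 11 and 7 on chromosome 7, and 3 pairs lay within 1 Mb of each other: D030028A08Rik with Tbkbp1, Sdcbp2 with Trib3 and Col15a1 with Tbc1d2.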

How the data were processed

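The deposited table holds raw read counts per gene, which the authors made from 50-base single-end reads of 6 libraries: FastQC 0.11.2, alignment with TopHat2 2.0.13 and counting with featureCounts, with mm10 named in the submitters' processing notes. The strand setting, annotation and treatment of multiple alignments are not given in the sources used here. All deposited counts are even numbers, and whether each read was counted 2 times is not given, so totals may exceed the reads behind them; CPM are unaffected, and precision taken from the counts may be too high. CPM used column totals, which ranged from 71840570 to 79473182, and 0 columns of per-sample values were left unused. The members, gene lists and motifs were chosen with earlier results of these data known. Rows with a mean count of 20 or more (13353) were fitted with edgeR 4.0.16 (R 4.3.3, TMM, quasi-likelihood test, group as the single term, Benjamini-Hochberg adjusted p of 0.05 or less). The biological coefficient of variation was 17.4%. In a test on simulated data over 13353 rows modelled on TGF-β+2APB against TGF-β, 62% of 2-fold and 84% of 4-fold differences were called. Of the rows left unchanged in that test, 22 were called too, so the calls include false ones. Few of the rows had been given a difference, so false calls made up a share of all calls above 0.05 in this single run. Symbols were matched to GENCODE on GRCm38 (18269 rows) and promoters to RefSeq.

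Named members were the 10 with the largest ratio, the 10 most abundant, those in a list or symbol family (up to 4 each), 3 beside each side of each threshold and the 3 with the widest gap between TGF-β+2APB replicates. Named other genes were those the study names for 2APB and up to 4 called genes per list. Further members, listed genes, marker values and neighbours were named after their values were seen. Alternatives were other scalings (TMM, RLE), thresholds, filters, halved counts, DESeq2 1.42.0, a replicate block and leaving out each library. The GC correction, the use of replicate 1 or replicate 2 libraries alone and the exchanged numbers were added after the data were seen. A few items, 2 members among them, are not reported here.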

Additional observations from a re-analysis of the deposited data

How the results depend on the processing

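The number of members depends on the thresholds: 16 rows met a ratio of 2 and 178 the looser ratio, 364 met the rule with no CPM minimum and 41 with a minimum of 5 CPM, 40 met a band of 1.2, and 125 met it with 1 CPM added to the means. TMM and RLE scaling gave 76 and 80 rows and kept 61 of the 62 members (without Vwa1). The replicate 1 libraries alone gave 257 rows and the replicate 2 libraries alone 213, with 60 and 54 of the members. Leaving out 1 library gave 64 to 144 rows with 53 to 62 of the members. The rows numbered 64 and 68 without DMSO replicates 1 and 2, and 87 and 144 without TGF-β replicates 1 and 2. Without TGF-β+2APB replicates 1 and 2 they numbered 132 and 105. What made these counts differ was not tested. The rows called between TGF-β+2APB and TGF-β numbered 2334, against 3698 with DESeq2 and 2408 with halved counts (6786 and 5446 in the other comparisons). When 1 library was left out they numbered 834 to 5405 (858 and 834 without DMSO replicates 1 and 2, 3793 and 5405 without TGF-β replicates 1 and 2, 986 and 1260 without TGF-β+2APB replicates 1 and 2, a lone library being assumed to vary like the other groups). Against DMSO they numbered 7044 and 4355 to 9006 with 1 library left out (4355 and 4435 without DMSO replicates 1 and 2), and for TGF-β against DMSO 5548 and 2753 to 7641 (2753 and 2895 without the same libraries). Of the listed pathway genes, members included, 43 were called higher, and 25 to 65 with 1 library left out (26 and 25 without DMSO replicates 1 and 2, 65 without TGF-β replicate 1). The causes of these shifts in calls were not tested. With 2 replicates per group the fit has 3 residual degrees of freedom, and low counts limit the members under 5 CPM.

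The replicate numbers did not pair the samples (correlation of same-numbered deviations 0.15, -0.46 and -0.26), and a replicate block gave 1342 calls between TGF-β+2APB and TGF-β, 6358 and 4737 in the other comparisons and 34 listed genes called higher. With the TGF-β+2APB numbers exchanged the block gave 2465, 7232 and 5706 calls.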
